A study of Drosophila melanogaster with 6 samples.

Results

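The genes described here act in the adult muscle precursors, the myoblasts on the notum side of the larval wing disc, or in their later differentiation and fusion. They were taken by name: *twi*, *htl*, *stumps*, *Him*, *zfh1*, *Mef2*, *hbs*, *sns* and *kirre*, 9 genes in all. Of these, 8 were matched to the 17471 genes of the count tables, and all 8 passed the minimum of 10 counts summed over the libraries, as did 10841 genes in total. The identifier that the annotation gives *hbs* has no row in these tables, and *hbs* is not analysed here. The comparison asks whether the RNA of these myoblast genes differs between *dLsd1* mutant and *wild-type* wing discs.

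Polyadenylated RNA was sequenced from 30 wing discs per sample, dissected from wandering female larvae of the third instar kept at 25 °C. The *dLsd1* mutant group (3 libraries) was homozygous for *dLsd1∆N*, a null allele with a deletion in the gene of the histone demethylase dLsd1, made by recombination between piggyBac insertions. The *wild-type* group (3 libraries) was the inbred w1118 stock. The lines were not made isogenic, so the allele and the rest of the genetic background cannot be told apart, and every cell of the disc carries the mutation. The labels do not say whether replicates came from separate crosses or days, so the p-values measure the spread between these samples only.

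Adult muscle precursors are set aside from the embryonic mesoderm and stay undifferentiated through larval life, and those on the notum later build the flight muscles of the thorax. Twist and Notch signalling keep them as precursors, and fibroblast growth factor (FGF) signals received by Heartless act through the adaptor Stumps. Him and Zfh1 hold back differentiation, Mef2 drives it, and the immunoglobulin receptors Sns and Kirre later bring fusing myoblasts together. Discs were sequenced whole, so fewer myoblasts and less RNA per myoblast cannot be told apart in these values. How far the RNA of each gene came from myoblasts alone was not tested.

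The targeted gene followed the labels: *dLsd1*, listed as *Su(var)3-3*, had 7, 6 and 1 counts in the mutant libraries, against 2136, 676 and 2564 in *wild-type* libraries. Library totals were between 35466251 and 42452820 counts in the mutant and between 13960866 and 45909324 in *wild-type*, where replicate 2 was the shallowest. Genes were called differentially expressed where the log2 fold change was beyond 0.6 in either direction with an adjusted p below 0.1 in edgeR's quasi-likelihood test. That held for 710 of all genes tested (6.55%), 468 of them higher in the mutant (4.32%) and 242 lower (2.23%). *Wild-type* replicate 3 stood apart from the other *wild-type* libraries along gene length. Its log2 level, minus the mean of *wild-type* replicates 1 and 2, had a median of -0.21 among the eighth of genes with the shortest annotated exons and 0.66 among the 970 genes of the eighth with the longest, of 5329 bases or more. Without it, 15.0% of 10617 genes were differentially expressed and 11.1% were called higher in the mutant. Each myoblast gene and each gene list is given below with all 6 libraries and without this library.

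No myoblast gene was differentially expressed: 0 of 8 passed the thresholds, beside 6.55% of all genes. None reached an unadjusted p of 0.05 in edgeR either, beside 18.5% of all genes, and with DESeq2 0 of 8 were called, beside 7.51%, and 1, *Mef2*, was below an unadjusted 0.05, beside 16.7% of all genes. In none of the 8 did the genotypes fail to overlap, beside 25.1% of all genes. The fold changes (mutant over *wild-type*) were positive for 5 genes and negative for 3, with a median log2 of 0.06, against -0.02 over all genes tested. For *twi*, *Him*, *stumps*, *htl* and *sns* the 95% interval of the fold change left out both a doubling and a halving. For *Mef2*, *zfh1* and *kirre* it did not, and these were the genes with the widest spread among the *wild-type* libraries.

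**Figure D1:**
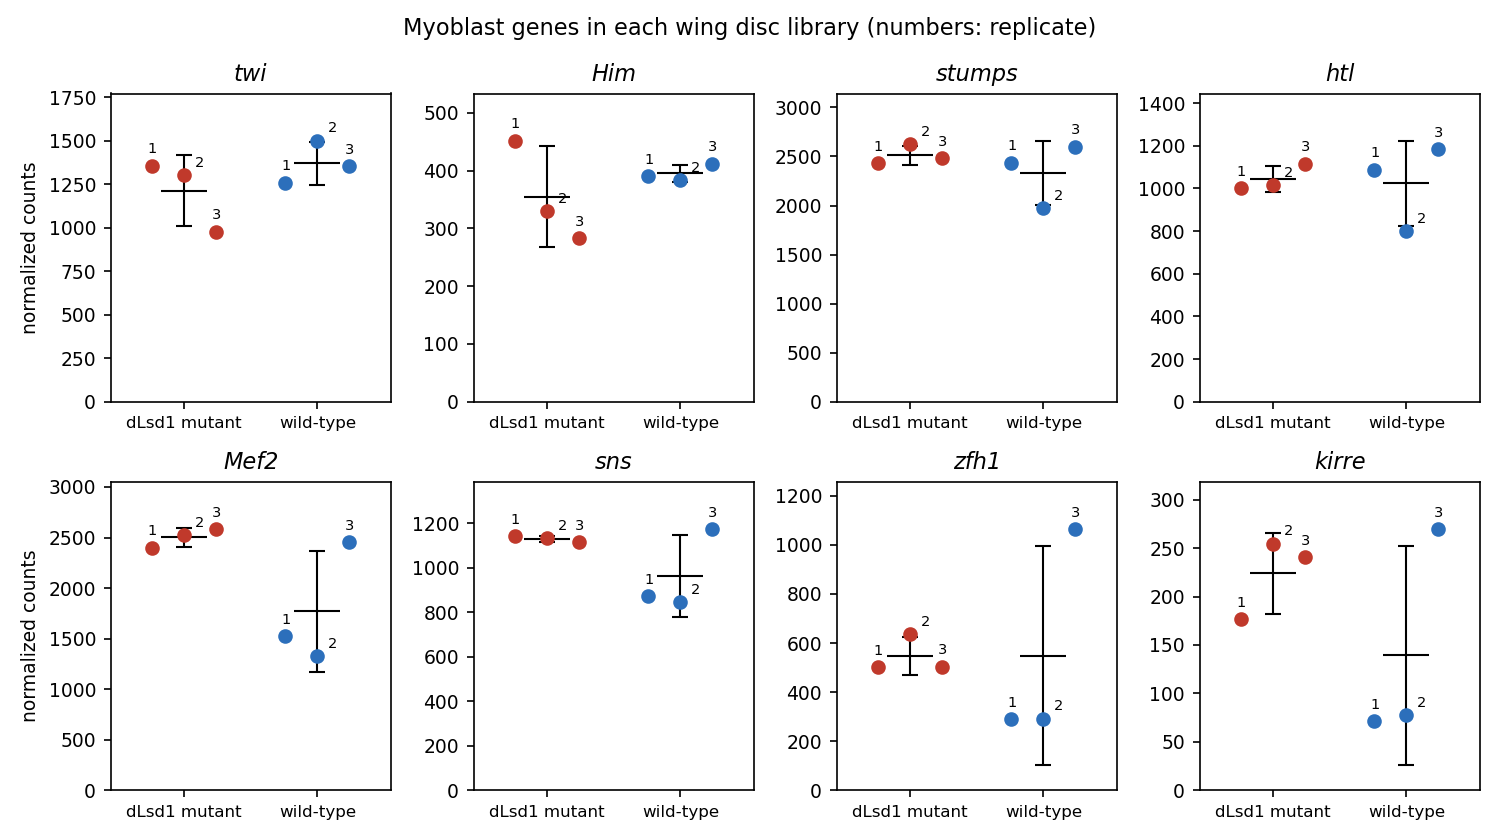
Normalized counts of the 8 myoblast genes (vertical axes, each from 0) in the 3 *dLsd1* mutant libraries (red) and the 3 *wild-type* libraries (blue), numbered by replicate; the horizontal line is the mean and the bars are 1 SD. The genotypes overlap in every gene, and for *Mef2*, *sns*, *zfh1* and *kirre* it is *wild-type* replicate 3 that makes them overlap.

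*twi* encodes the bHLH transcription factor that marks the myoblast precursors (BDGP6 2R:22985374-23048325, plus strand). It had 1355.7, 1301.4 and 978.3 normalized counts in mutant libraries, against 1257.5, 1501.7 and 1353.7 in *wild-type*, a log2 fold change of -0.18 (SE 0.15, edgeR adjusted p = 0.549). Mutant replicate 3 was the lowest of the 6 libraries and the other mutant libraries lay within the *wild-type* range. The interval of the fold change ran from 0.701 to 1.12 times *wild-type*. This gene gave the same log2 value, -0.18, without *wild-type* replicate 3 (adjusted p = 0.407). Exons of CG9897, on the opposite strand, share 245 bases with those of *twi*. Those of *asRNA:CR42742*, named as an antisense RNA but annotated on the same strand as *twi*, share 291. Their counts were 0 in every library except for 5 counts of CG9897 in mutant replicate 2, and how the counting split shared reads is not given in the sources used here.

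*Him* encodes a nuclear protein that keeps Mef2 from activating muscle genes (X:18209427-18210741, plus strand). Its normalized counts were 452.2, 329.4 and 283.3 in the mutant, against 390.4, 383.8 and 412.2 in *wild-type*. The *wild-type* libraries lay close together, with a coefficient of variation of 3.76%, against 24.6% among mutant libraries, which reached both above and below them. The log2 fold change was -0.16 (SE 0.18, adjusted p = 0.672), and -0.13 without *wild-type* replicate 3. With exons of 920 bases, *Him* was the shortest of the myoblast genes and the only one in the shortest eighth of genes.

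*zfh1* encodes a zinc finger and homeodomain repressor that holds precursors undifferentiated (3R:30765926-30789202, plus strand). It had 501.6, 636.7 and 504.2 normalized counts in mutant libraries, against 288.4, 291.1 and 1064.8 in *wild-type* libraries. *Wild-type* replicate 3 was 3.67 times the mean of the other *wild-type* libraries and above every mutant library, while the others were below every mutant library. The group means were accordingly alike, 547.5 ± 77.3 in the mutant and 548.1 ± 447.5 in *wild-type* (SD, n = 3 each). The log2 fold change was -0.02 with a wide interval, -1.39 to 1.35 (SE 0.55, adjusted p = 0.988). Without *wild-type* replicate 3, *zfh1* was called higher in the mutant by 0.92 (SE 0.15, adjusted p = 0.00506). An annotated antisense RNA that shares 315 exon bases with *zfh1*, *asRNA:CR45189*, had 0 counts in every library.

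*htl* encodes the FGF receptor of the mesoderm (3R:18045216-18052984, minus strand). It had 1001.2, 1017.0 and 1115.5 normalized counts in the mutant, against 1087.8, 798.5 and 1185.0 in *wild-type*. All 3 mutant libraries fell inside the *wild-type* range, whose lowest value came from the shallowest library, replicate 2. The log2 fold change was 0.02 (SE 0.15, adjusted p = 0.946), with an interval from 0.797 to 1.30 times *wild-type*. *stumps*, the adaptor that links this receptor to Ras signalling (3R:14577217-14608079, plus strand), followed the same order among the *wild-type* libraries. Its normalized counts were 2431.0, 2622.4 and 2483.1 in the mutant, against 2436.7, 1970.6 and 2600.7 in *wild-type*, a log2 fold change of 0.10 (SE 0.13, adjusted p = 0.694). Without *wild-type* replicate 3 the values were 0.13 for *htl* (adjusted p = 0.491) and 0.18 for *stumps* (adjusted p = 0.236). Neither sign was stable, as both fold changes turned negative when a trend with exon length was removed from each library (-0.07 for each).

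*Mef2* encodes the MADS-box transcription factor that switches on muscle structural genes (2R:9913496-9958858, minus strand). Its normalized counts were 2396.4, 2520.5 and 2584.3 in the mutant, against 1524.8, 1326.6 and 2452.7 in *wild-type*. The mutant libraries lay within a narrow range that *wild-type* replicate 3 entered from below, while the other *wild-type* libraries were well under it. Over all 6 libraries the log2 fold change was 0.50 (SE 0.22, interval -0.01 to 1.01) and did not pass the test (adjusted p = 0.274). Still with all 6, it was 0.31 in edgeR with the exon-length trend removed (adjusted p = 0.0861). With the gene-span trend removed it was 0.33 (adjusted p = 0.0757). Each of these passed the p threshold and not the fold threshold. Leaving out *wild-type* replicate 3, which was 1.72 times the mean of the others, *Mef2* was called higher in the mutant by 0.81 (SE 0.10, adjusted p = 0.00166). With the exon-length trend also removed the value was 0.33 (adjusted p = 0.0415), which is under the fold threshold. The annotated exons of *Mef2* add up to 9188 bases, the longest among the myoblast genes.

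The fusion receptors differed in level and in spread. *sns* encodes the receptor of fusion-competent myoblasts, a relative of vertebrate nephrin (2R:8798489-8856091, plus strand). It had 1142.4, 1132.5 and 1115.5 normalized counts in mutant libraries, against 872.3, 844.9 and 1174.6 in *wild-type*. The mutant libraries varied by 1.21% (coefficient of variation), the least of any myoblast gene in either genotype, against 19.0% in *wild-type*. The log2 fold change was 0.23 (SE 0.14, adjusted p = 0.429). Without *wild-type* replicate 3 it was 0.39 (SE 0.09, adjusted p = 0.0183), past the p threshold and short of the fold threshold, and with the exon-length trend also removed it was -0.06 (adjusted p = 0.689).

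*kirre* encodes the receptor of founder cells that binds Sns (X:2740384-3134532, plus strand). It had the lowest level of the set, with 176.7, 254.7 and 240.4 normalized counts in the mutant, against 71.2, 77.3 and 269.8 in *wild-type*, from raw counts of 179, 300 and 247 against 81, 30 and 339. *Wild-type* replicate 3, at 3.63 times the mean of the other *wild-type* libraries, was the highest of all 6, and the others were the lowest. The log2 fold change of 0.65 (SE 0.54) had an interval from -0.67 to 1.96 and did not pass the test (adjusted p = 0.559). Without *wild-type* replicate 3, *kirre* was called higher in the mutant by 1.60 (SE 0.24, adjusted p = 0.00367), and by 1.17 with the exon-length trend also removed (adjusted p = 0.0123). Its span of 394149 bases ranked 3 among 10688 genes tested and holds other genes, none of which shares exon bases with it.

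**Figure D2:**
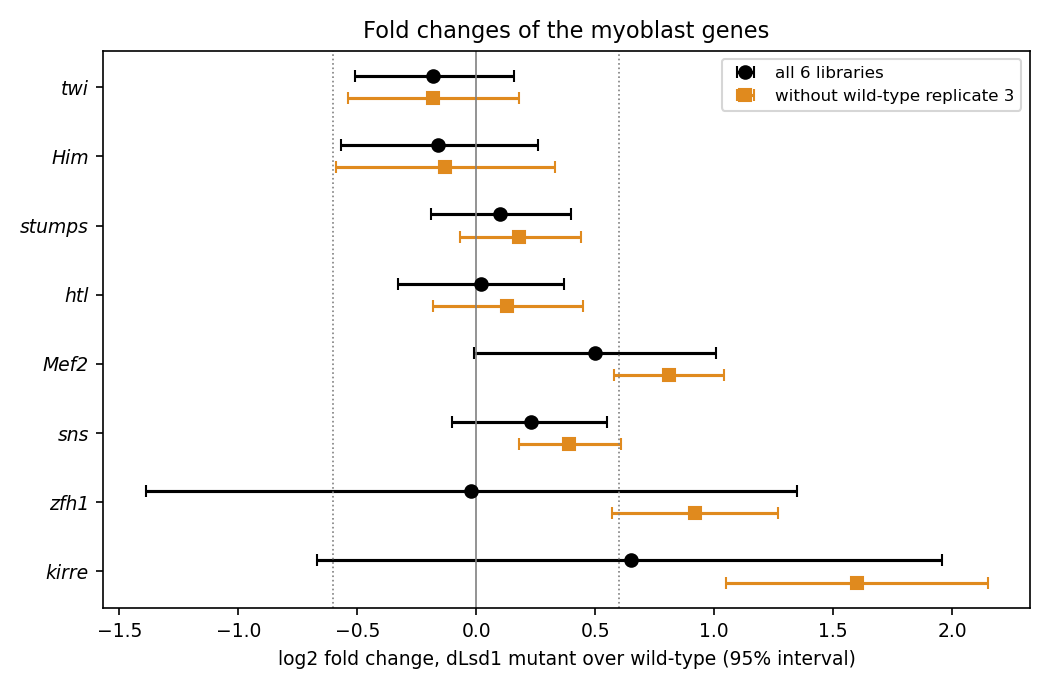
Log2 fold changes of the 8 myoblast genes, mutant over *wild-type* (horizontal axis), with all 6 libraries (black circles) and without *wild-type* replicate 3 (orange squares); bars are 95% intervals and dotted lines the fold threshold of 0.6 in each direction. With all libraries every interval holds 0, and without replicate 3 those of *Mef2*, *sns*, *zfh1* and *kirre* lie above it.

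Thus 3 of 8 myoblast genes, *Mef2*, *zfh1* and *kirre*, were called higher in the mutant without *wild-type* replicate 3, beside 11.1% of all genes, and 4 of 8 reached an adjusted p below 0.1, beside 37.5% of all genes. Those were also the 4 in which mutant and *wild-type* libraries then no longer overlapped. The share of all genes without overlap was not counted for this fit, where fewer libraries make a lack of overlap easier to reach. The median log2 over the 8 genes was 0.29. Gene length moved with this result. In the fit without that library, the longest eighth of genes centred on a log2 value of 0.45 (median), and 29.8% of them were called higher in the mutant, against 3.92 to 15.7% in the other eighths. Of the 8 myoblast genes, *stumps*, *zfh1*, *kirre*, *sns* and *Mef2* fall in that eighth. With the exon-length trend removed as well, 1 of 8 was called, *kirre*, beside 8.01% of all genes called higher and 11.3% called in either direction. Over all 6 libraries, 0 of 8 were called with the exon-length trend removed, beside 7.16% of all genes (4.98% higher). With a trend in gene span removed in its place 1 of 8 was called, *kirre* (0.78, adjusted p = 0.0705), beside 6.85% of all genes (4.72% higher). What set *wild-type* replicate 3 apart was not tested.

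The myoblast genes did not all follow the length trend of that library to the same degree. *zfh1* and *kirre* stood 1.87 and 1.83 log2 units above the mean of *wild-type* replicates 1 and 2, differences reached by 1.01% and 1.17% of the 7756 genes compared. *Mef2* was 0.79 above, reached by 9.86%, and *sns* 0.45 above, reached by 18.4%. These shares are over genes of all lengths, and shares among genes of like length were not counted. The longest eighth, which holds each of these genes, had a median of 0.66. *stumps*, also among the longest genes, was only 0.25 above, and *twi* was 0.02 below. Replicate 3 was the highest *wild-type* library for 7 of 8 myoblast genes, *twi* being the exception.

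**Figure D3:**
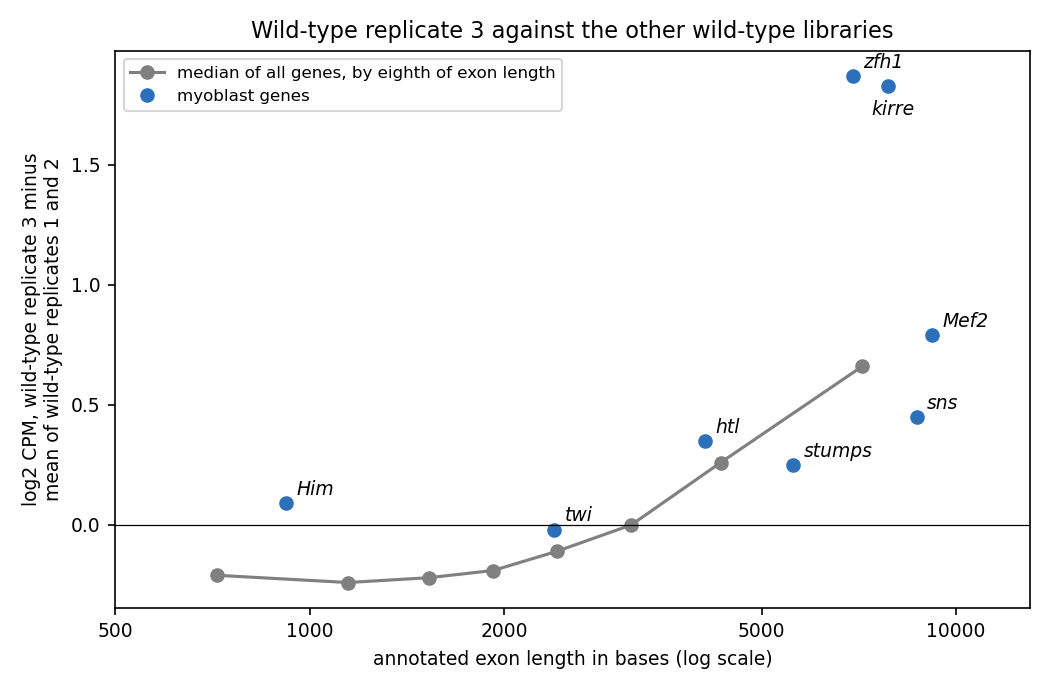
Log2 level of *wild-type* replicate 3 minus the mean of *wild-type* replicates 1 and 2 (vertical axis) against annotated exon length on a log scale (horizontal axis); grey points are medians of all genes in each eighth of exon length and blue points the 8 myoblast genes. The medians climb to 0.66 in the longest eighth, and *zfh1* (1.87) and *kirre* (1.83) lie far above them.

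Levels were compared between genes per length, as TPM, a gene's counts per annotated exon base scaled to the same total in every library. In *wild-type* the order was *twi*, *Him*, *stumps*, *htl*, *Mef2*, *sns*, *zfh1* and *kirre*. The level of *twi* averaged 26.9 ± 3.31 TPM in the mutant and 29.1 ± 3.05 TPM in *wild-type*, and that of *kirre* 1.53 ± 0.32 TPM in the mutant and 0.932 ± 0.815 TPM in *wild-type* (SD, n = 3 each). *twi* was above *Him*, *stumps* above *htl*, *Mef2* above *sns* and *zfh1* above *kirre* in all 6 libraries. *Him* and *stumps* did not differ beyond their spread, at 20.4 ± 4.23 and 23.9 ± 1.42 TPM in the mutant and 21.8 ± 2.24 and 21.2 ± 4.03 TPM in *wild-type*, and *Him* was the higher in 2 of 6 libraries. The order of *htl* and *Mef2* differed between the genotypes: *Mef2* was higher in all 3 mutant libraries, at 14.5 ± 1.25 against 13.6 ± 1.52 TPM for *htl*, and *htl* was higher in all 3 *wild-type* libraries, at 12.8 ± 3.11 against 9.90 ± 4.06 TPM for *Mef2*. These ranges overlapped within each genotype. *sns* was above *zfh1* in 5 of 6 libraries, *wild-type* replicate 3 being the exception.

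**Figure D4:**
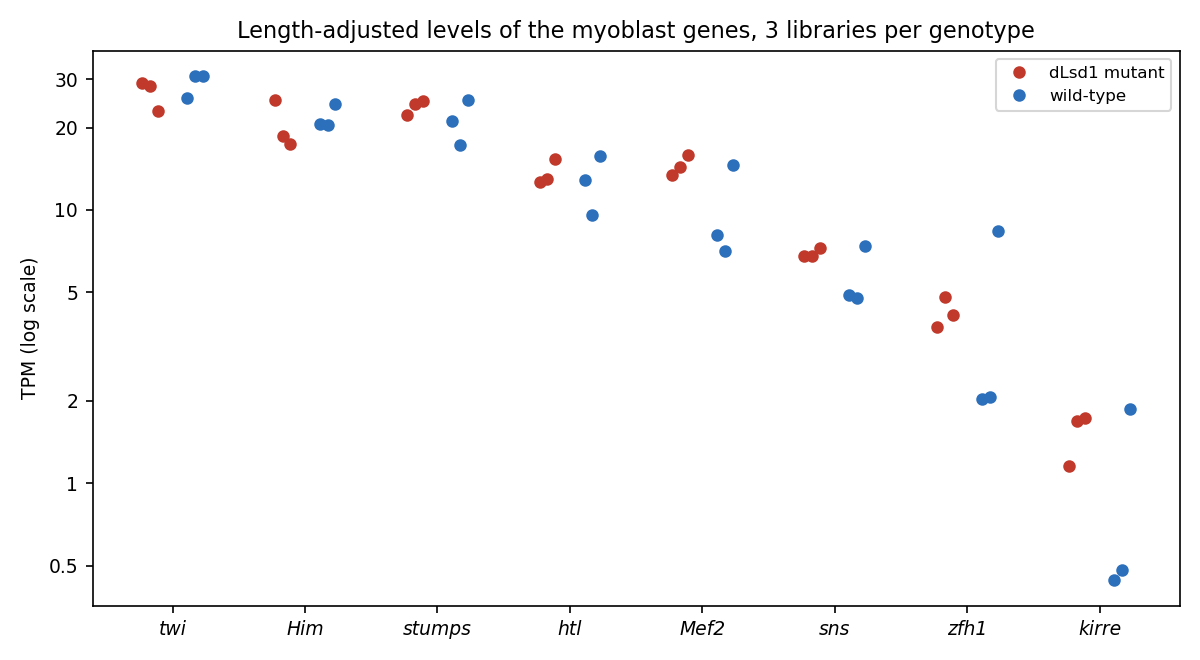
Levels of the 8 myoblast genes in TPM (log scale, vertical axis) in each *dLsd1* mutant library (red) and each *wild-type* library (blue), replicates 1 to 3 from left to right within a group. *twi* is highest and *kirre* lowest in *wild-type*, and the *wild-type* points of *zfh1* range from 2.03 to 8.39.

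Summed over the 8 genes, normalized counts were between 9304.6 and 9814.7 in mutant libraries and between 7194.4 and 10513.4 in *wild-type* libraries, the highest being replicate 3. The mean profile of the 8 genes, as log2 levels centred over the libraries, was 0.11, 0.18 and 0.05 in the mutant, against -0.31, -0.39 and 0.35 in *wild-type*. *sns* lay closest to this mean, with a root-mean-square difference of 0.09 log2 units over the 6 libraries, and *kirre* farthest, at 0.55. Among 7469 other genes with a mean of at least 100 normalized counts, the profiles nearest to the mean were those of CG4502 (0.022), *numb* (0.034), *jvl* (0.036), *Eaf* (0.043) and *SCaMC* (0.044). None of these 5 was differentially expressed, with log2 fold changes between 0.11 and 0.21.

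Other genes known from these myoblasts did not pass the test either. Of 10 further myoblast genes, 0 were called, and the median log2 value was 0.03. *vg*, a selector gene of wing and flight muscle, had 4906.4, 6081.0 and 5748.8 normalized counts in the mutant, against 3722.4, 5533.0 and 7030.9 in *wild-type* (log2 0.04, SE 0.22, adjusted p = 0.939). *Ama*, a secreted immunoglobulin protein, was the most abundant, at 12791.9, 11427.7 and 9937.3 in the mutant, against 14236.2, 14932.4 and 11151.6 in *wild-type* (log2 -0.24, SE 0.15, adjusted p = 0.435). *ct*, a homeodomain factor high in myoblasts of the direct flight muscles, had 194.5, 326.8 and 292.0 in the mutant, against 166.2, 257.6 and 882.5 in *wild-type*. That is a log2 value of -0.70 over all libraries (SE 0.65, adjusted p = 0.606) and 0.39 without *wild-type* replicate 3 (adjusted p = 0.318).

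*how*, an RNA-binding protein of muscle and tendon, showed the order of libraries seen for *zfh1*: its 1748.7, 2239.5 and 2173.6 normalized counts in the mutant stood between 1246.1 and 1458.0 in *wild-type* replicates 1 and 2 and 4979.3 in replicate 3. It alone of these 10 was called without that library (0.61, adjusted p = 0.0154), where the median of the 10 was 0.33. When the exon-length trend was removed too, *how* was at 0.33 and 0 of 10 were called. *nau*, the fly MyoD relative that comes on as muscle forms, was low, at 42.5, 46.7 and 37.0 in the mutant, against 30.8, 30.9 and 27.9 in *wild-type* (log2 0.50, SE 0.30, adjusted p = 0.408). Its genotypes did not overlap and it did not pass the test.

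Around the receptor Heartless, 0 of 10 FGF signalling genes were called, with a median of 0.16. The ligands were spread widely: *pyr* had 352.5, 468.6 and 492.5 normalized counts in the mutant, against 238.3, 211.2 and 574.6 in *wild-type* (log2 0.34, SE 0.40, adjusted p = 0.691). *ths* had 487.8, 799.7 and 879.0 in the mutant, against 331.5, 597.6 and 1894.0 in *wild-type* (log2 -0.39, SE 0.66, adjusted p = 0.781). Replicate 3 was again the highest *wild-type* library for both. Without it, *pyr*, the adaptor *drk* and the ETS transcription factor *pnt* were called higher in the mutant (0.95, 0.64 and 0.71), and *ths* was not (0.67, adjusted p = 0.204). The median of the list was then 0.51, and 3 of 10 were called, beside 11.1% of all genes called higher. When the exon-length trend was removed too, 2 of 10 were called, beside 8.01% of all genes called higher. These were *pyr* (0.90) and *drk* (0.62), and *pnt* was at 0.36.

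Of 16 genes of myoblast fusion, 0 were called and the median was 0.22. *rst*, the paralogue of *kirre* that lies within its span, had 1448.5, 1485.7 and 1677.1 normalized counts in the mutant, against 910.1, 803.7 and 1774.6 in *wild-type* (log2 0.40, SE 0.30, adjusted p = 0.527). It was called higher in the mutant without *wild-type* replicate 3 (0.84, adjusted p = 0.00221), as was the GTPase gene *Rac2* (0.85, adjusted p = 0.00429). That is 2 of 16, beside 11.1% of all genes called higher, and the median was then 0.40. Removing the exon-length trend as well left 1 of 16 called, *Rac2* (0.90), beside 8.01% of all genes called higher. *rst* was then at 0.48. The abundant cytoskeletal genes of fusion, *rols* and *blow*, had log2 values of -0.06 and -0.02 over all libraries and -0.07 and -0.08 without replicate 3. *lmd* and *sing*, which act in fusing myoblasts, were low, with at most 6.9 and 12.9 normalized counts in any library.

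Among 12 Notch pathway genes, 0 were called and the median was -0.03. The receptor gene *N* had a log2 value of 0.02 and its ligand gene *Ser* -0.04, with SE of 0.18 and 0.12. Without *wild-type* replicate 3, the ligand gene *Delta*, the coactivator *mam*, the ubiquitin ligase *neur* and the repressor *H* were called higher in the mutant. Their values were 0.63 to 0.82 and the median was 0.26. That is 4 of 12, beside 11.1% of all genes called higher. Removing the exon-length trend as well left 1 of 12 called, *neur* (0.61), beside 8.01% of all genes called higher. *Delta* was then at 0.35, *mam* at 0.17 and *H* at 0.48.

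Genes of differentiated muscle were counted beside the myoblast genes. Of 24 such genes, 21 passed the count minimum and 18 of these had a positive log2 fold change, beside 5215 of 10841 genes tested. The median of the list was 0.70, against 0.06 for the myoblast genes and -0.02 for all genes. The genotypes failed to overlap in 5 of the 21, beside 25.1% of all genes. Spread within a genotype could be wide: *Mhc* had 128.4, 271.7 and 107.1 normalized counts in the mutant, against 24.6, 180.3 and 47.7 in *wild-type*. Only *Mlc2*, a myosin light chain gene, was called: it had 1021.0, 781.9 and 696.9 normalized counts in the mutant, against 577.7, 602.8 and 442.5 in *wild-type* (log2 0.63, SE 0.18, adjusted p = 0.0941). That call was lost with upper-quartile scaling, with edgeR's own count filter, without robust estimation, and without mutant replicate 1, mutant replicate 2 or *wild-type* replicate 1, each of which left 0 genes of the list called. With the replicate number as a block 4 were called higher, *Mlc2* (0.62, adjusted p = 0.0399), *Mlc1* (1.28, adjusted p = 0.0467), *wupA* (1.37, adjusted p = 0.0406) and *Mhc* (1.32, adjusted p = 0.0913). The most abundant gene of the list, *Argk1*, an arginine kinase gene, went the other way. It had 37690.4, 35700.1 and 27836.9 in the mutant, against 57277.0, 51103.0 and 43252.7 in *wild-type* (log2 -0.58, SE 0.16, adjusted p = 0.0873), just short of the fold threshold. With all 6 libraries and the exon-length trend removed, *Argk1* was called lower (-0.64, edgeR adjusted p = 0.0675). *Mlc2* (0.67), *Mlc1* (1.42) and *wupA* (1.56) were then called higher, so 4 of 21 were called, beside 7.16% of all genes. DESeq2 called 3 of the list, beside 7.51% of all genes, and the fit without mutant replicate 3 called 2, all higher in the mutant. *Tm1*, also used outside muscle, had a log2 value of 0.28 (adjusted p = 0.503). The flight muscle actin gene *Act88F* had at most 5.3 normalized counts in any library, and *fln*, a thick filament gene of flight muscle, at most 3.9. The list summed to between 76357.3 and 83054.9 normalized counts in the mutant and between 80429.5 and 100483.7 in *wild-type*. *Argk1* and *Tm1* made up most of each sum, so the sums mainly follow these genes, while the median weighs every gene alike. Whether these markers have a part in the myoblast values was not tested. Without *wild-type* replicate 3 the median was 0.86. Then 6 were called higher and 1, *Argk1*, lower, beside 15.0% of all genes called and 11.1% called higher. *Mlc2* was not called there (0.50, adjusted p = 0.0588). *bt*, *sls* and *Msp300*, among the 6 called higher, have exons of 28019, 58996 and 69810 bases. None of them was called with the exon-length trend also removed (0.46, 0.24 and 0.43). In that fit 5 of the list were called, 3 of them higher, beside 11.3% of all genes called and 8.01% called higher.

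Markers of the disc epithelium included values in both directions. On the notum, where the myoblasts lie, 0 of 13 genes were called with a median of -0.13, the abundant *tsh* at 0.28 (SE 0.16) and *ara* at -0.37 (SE 0.11). *ush* was at 0.54 (SE 0.15, adjusted p = 0.0867), short of the fold threshold. In the wing pouch 0 of 10 were called with a median of -0.02, *bbg* at 0.27 and *nub* at -0.05. Here *pdm2* at 0.50 (adjusted p = 0.0415), *Doc1* at -0.41 (adjusted p = 0.0432) and *Doc2* at -0.59 (adjusted p = 0.0265) passed the p threshold and not the fold threshold. Beside the myoblast sums, notum markers added up to between 39183.3 and 41410.2 normalized counts in the mutant and between 33079.3 and 50749.2 in *wild-type*. Their highest *wild-type* library was replicate 3 as well. Without it the medians were 0.19 on the notum and 0.48 in the pouch. *ush* on the notum and *rn* in the pouch were called higher in the mutant and the pouch gene *Doc2* lower. When the exon-length trend was removed too, 0 genes of either list were called. *ush* was then at 0.33, *rn* at 0.53 and *Doc2* at -0.56.

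Markers of other cell types that can adhere to a disc varied between libraries. Fat body genes summed to between 4351.0 and 20234.0 normalized counts in the mutant and between 2290.3 and 31116.7 in *wild-type*, where replicate 3, the highest for most myoblast genes, was the lowest. *Lsp1alpha*, a larval serum protein gene, was called higher in the mutant (log2 2.17, SE 0.51, adjusted p = 0.0535) and was the only one of 10, of which 3 had a positive value, with a median of -0.53. The abundant *Fbp1* and *Lsp2* had log2 values of -1.08 (SE 1.05) and -0.66 (SE 1.02). The call of *Lsp1alpha* was lost without mutant replicate 1, mutant replicate 2, *wild-type* replicate 1 or *wild-type* replicate 2, and held without *wild-type* replicate 3 (2.73, adjusted p = 0.0116), where the median was -0.48. With the replicate block 3 were called, 2 of them higher. Of 9 haemocyte markers, *NimC1*, a phagocytosis receptor gene, was called lower (log2 -1.88, SE 0.45, adjusted p = 0.0511), and 2 were called with the block, where *Pxn*, a matrix peroxidase gene, was added (0.69, adjusted p = 0.0861). The median of these markers was 0.31, with 7 of 9 positive, *Ppn* at -0.06 and *crq* at 0.31. No haemocyte marker was called without any 1 of the mutant libraries or without *wild-type* replicate 1. With *wild-type* replicate 3 left out the median was 0.46 and *NimC1* was called lower (-2.08, adjusted p = 0.0139). *eater* (0.85, adjusted p = 0.0853) and the scarce *lz* (0 counts in the remaining *wild-type* libraries) were then called higher. *eater* was not called once the exon-length trend was removed too (0.79, edgeR adjusted p = 0.121). Haemocyte markers summed to between 27285.0 and 36094.7 in the mutant and between 25328.7 and 38581.3 in *wild-type*. Most of each sum was *Ppn*, with 24202.3 to 33799.0 in the mutant and 23376.2 to 36172.4 in *wild-type*, so the sums mainly follow that gene. The block is printed here because same-numbered replicates deviated together across genotypes, although mutant replicate 1 and *wild-type* replicate 2 did so too.

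Of 9 tracheal markers 0 were called, with a median of 0.01 and sums between 82140.1 and 96346.4 in the mutant and between 90274.6 and 96917.7 in *wild-type*. The abundant *uif* and *pio* had log2 values of 0.06 and -0.12. *obst-A*, a cuticle-binding protein gene, was at 0.61 (SE 0.19, adjusted p = 0.121) and was called higher without *wild-type* replicate 3 (0.81, adjusted p = 0.00718), where the median was 0.07. A count of 1 tracheal gene, higher in the mutant, was also reached with DESeq2, upper-quartile scaling and no count filter. The same held with the exon-length trend removed and *wild-type* replicate 3 left out. A count of 1 gene lower in the mutant was reached with the gene-span trend removed, and without mutant replicate 1 or *wild-type* replicate 2. *serp* was at -0.59 over all libraries (edgeR adjusted p = 0.025), short of the fold threshold. With the gene-span trend removed it was called lower (-0.70, adjusted p = 0.0128). Of 10 neuron and glia genes 2 were called higher, *ChAT* (adjusted p = 5.37e-05) and *Rbp9* (log2 2.32, SE 0.41, adjusted p = 0.0146). *ChAT*, the gene of the enzyme that makes acetylcholine, had 149, 199 and 201 counts in the mutant, against 2, 0 and 2 in *wild-type*. The neuronal gene *elav* was at -0.06 over all libraries (SE 0.64, adjusted p = 0.966). It was called higher in the mutant without *wild-type* replicate 3 (1.02, SE 0.25, adjusted p = 0.0219). It was not called once the exon-length trend was removed too (0.50, edgeR adjusted p = 0.142). *moody*, a gene of the glial barrier, was at 0.34 (SE 0.23). The median of the list was 0.40, and 0.75 without *wild-type* replicate 3. The sums of the neuron and glia list were between 987.4 and 1126.6 in the mutant and between 492.0 and 1284.4 in *wild-type*. A part of any of these cell types in the myoblast values was not tested.

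**Figure D5:**
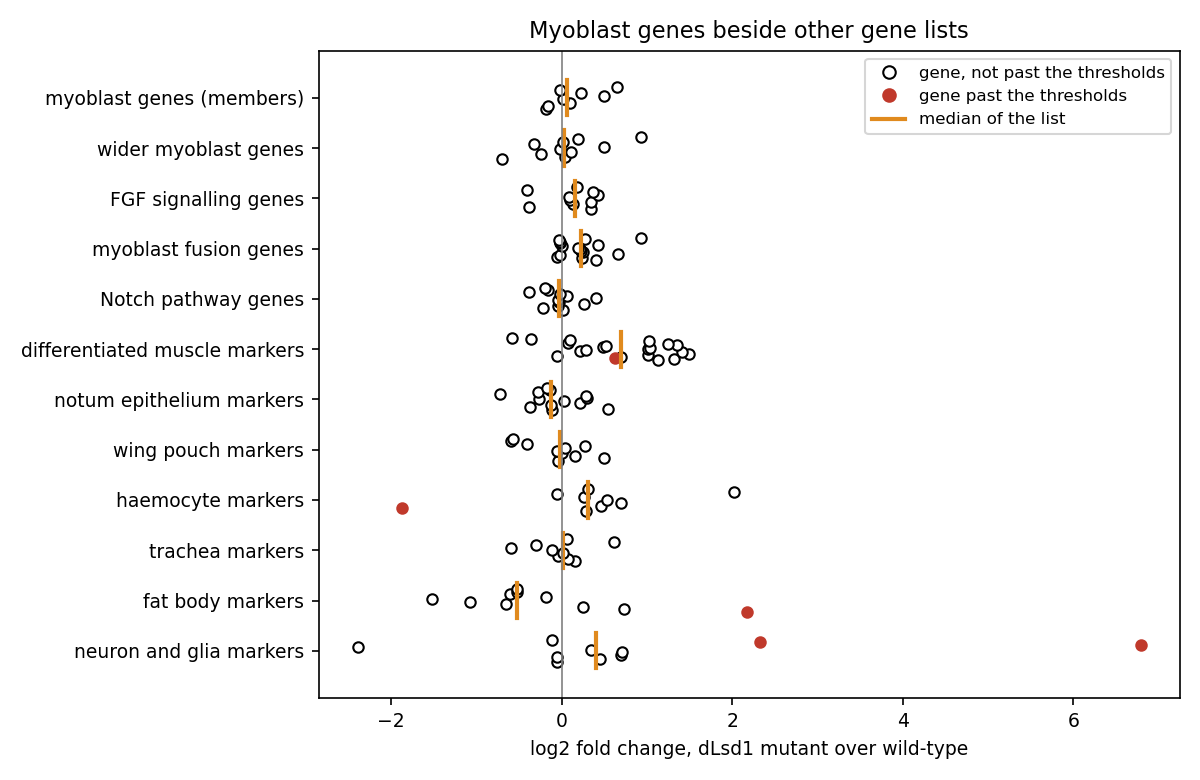
Log2 fold changes, mutant over *wild-type* (horizontal axis), of the 8 myoblast genes and of 11 other gene lists; open circles are genes that did not pass the thresholds, red circles genes that did, and orange bars the median of each list. The myoblast genes lie around 0 with a median of 0.06. The differentiated muscle genes have a median of 0.70, with no overlap of the genotypes in 5 of 21, beside 25.1% of all genes.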

How the data were processed

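Wing disc RNA was measured in 6 libraries (TruSeq stranded mRNA, paired-end). Per the labels and the study's methods, the authors trimmed reads with Trimmomatic 0.36, aligned them to dm6 with STAR 2.5.2a and used Picard to remove duplicates. The deposited values are whole-number counts of genes and transposable element families, 1 table per library in the TEToolkit layout, without normalization. The annotation release and strand setting of the counting, and whether these tables were made before or after that step, are not given in the sources used here.

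Counts were fitted with edgeR 4.0.16 (R 4.3.3): TMM factors, the robust quasi-likelihood F-test, genotype as the only term, 10841 genes and 150 element families with at least 10 summed counts, and Benjamini-Hochberg adjustment over all of them. Calls needed a log2 value beyond 0.6 in either direction and an adjusted p below 0.1. Standard errors were derived from each fold change and its F statistic, and intervals are at 95%. Normalized counts are scaled to the mean effective library size. Positions and exon lengths come from the BDGP6 annotation, release 115, matched by FlyBase identifier for 17249 genes. Tables used pandas 2.3.3 and scipy 1.17.1.

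Same-numbered replicates of the genotypes deviated together (correlations 0.37, 0.18 and 0.43 over 7974 features), so fits with the replicate number as a block were run. The match of numbers was not clear-cut. Mutant replicate 1 and *wild-type* replicate 2 correlated at 0.33, above the same-numbered pair of replicate 2, while the remaining pairs of unlike number were negative. Replicates differed by more than sampling noise, and each library counted as 1. Other alternatives were DESeq2 1.42.0, other scalings and filters, no robust estimation, another threshold and each library left out. Those that removed a trend with exon length or gene span were added after seeing the data, as was every recount of the lists. The code was tested on simulated data.

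The members and lists were chosen with earlier results of these data known. Named are all members, *dLsd1*, any gene of the wider myoblast, FGF and fusion lists, from the other lists each called gene and the 2 most abundant, and the 5 genes most like the members. *Mhc*, *Mlc1*, *wupA* and *Pxn* (called with the block), *Act88F*, *fln*, *pdm2*, *Doc1* and *serp* were picked after their values were seen or for being defining markers. *hbs* and the marker genes *btl* and *Nplp2* could not be matched and are not analysed here. No sequence is printed.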

Additional observations from a re-analysis of the deposited data

How the results depend on the processing

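The count of differentially expressed genes, 710 with all libraries, was lowest, 373, with mutant replicate 2 left out and highest, 1588, with *wild-type* replicate 3 left out, was 428 without mutant replicate 3 and 435 without *wild-type* replicate 1, and was 1198 when the exon-length trend was removed and *wild-type* replicate 3 left out. It was 814 with DESeq2, 759 with the replicate block, 776 with the exon-length trend removed and 743 with the gene-span trend removed. The count of myoblast genes called, 0 with all libraries, ranged from 0 to 3 over the libraries left out, the 3 coming without *wild-type* replicate 3. It was 1 with the gene-span trend removed (*kirre*, 0.78, adjusted p = 0.0705) and 1, again *kirre*, with the exon-length trend removed and *wild-type* replicate 3 left out; under the other alternatives run it was 0. The replicate block changed no call of a myoblast gene, and its largest shift was *zfh1*, 0.26 against -0.02.

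The sign of a fold change turned in these cases. *zfh1* was 0.019 with upper-quartile scaling, 0.53 with the exon-length trend removed and *wild-type* replicate 3 left out, and -0.34 to 0.92 over the libraries left out. *htl* was -0.067, -0.084 and -0.034 and *stumps* -0.066, -0.10 and -0.13 with the exon-length trend removed, the gene-span trend removed, and the exon-length trend removed without *wild-type* replicate 3. Over the libraries left out *htl* ranged from -0.12 to 0.13 and *stumps* from -0.004 to 0.18. With the exon-length trend removed and *wild-type* replicate 3 left out, *Him* was 0.04 and *sns* -0.062. *twi*, *Mef2* and *kirre* kept their sign under every alternative run, although *kirre* ranged from 0.31 to 1.60. The causes were not tested. With 3 libraries a genotype and 30 counts of *kirre* in the shallowest library, differences in *kirre* and *zfh1* smaller than their intervals are not detectable here.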
